A study of Mus musculus with 16 samples.

Results

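The genes described here write, erase and read N6-methyladenosine (m6A) on RNA, and they are 10 of the 55414 genes in the deposited count tables. They were chosen by name, as the rows whose gene identifier maps to Mettl3, Mettl14, Wtap, Alkbh5, Fto, Ythdf1, Ythdf2, Ythdf3, Ythdc1 and Igf2bp2. Each symbol matched 1 row, and all 10 passed the filter on low counts that left 25081 genes for testing.

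m6A is a methyl mark on adenosines inside messenger RNA. A nuclear complex built on the catalytic subunit Mettl3, its partner Mettl14 and the adaptor Wtap places it, the dioxygenases Alkbh5 and Fto can remove it, and proteins of the YTH and Igf2bp families bind it. In the cytoplasm Ythdf2 is known to recruit deadenylation enzymes to marked mRNAs, while Igf2bp proteins are known to protect their targets. In blood-forming tissue the pathway is known for the control of stem cell self-renewal and differentiation.

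The study measured polyadenylated RNA by Smart-seq2, a full-length library method for small samples, at 0, 1, 3 and 5 h after 5 µM actinomycin D, a drug that blocks RNA synthesis, so that the fall of an mRNA can be followed. Per the labels, lineage-depleted mouse bone marrow of genotype Nat10-/- (Nat10 deficiency) or wild type (WT) was cultured with stem cell factor and thrombopoietin, and long-term haematopoietic stem cells (LT-HSCs) were sorted at each time. Nat10 is the enzyme that places ac4C, an acetyl mark, on RNA. The labels give no age, strain, promoter or Cre for the deficient animals and do not say how the gene was inactivated, and the titles say 32D, the name of a mouse myeloid line, where sorted stem cells would be named. The 16 libraries form 8 groups of 2, each genotype at 4 times, and the labels give the same culture conditions for all groups.

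The quality of the libraries bears on every value below. Nat10 itself stood at 88.3 and 91.3 TMM-scaled CPM (CPM, the count over the library total, with trimmed-mean library factors) at 0 h, 72.3 and 76.5 after 1 h, 98.3 and 100.6 after 3 h, and 137 and 152 after 5 h in the libraries labelled Nat10-deficient. In WT it stood at 71.8 and 71.0 at 0 h, 78.2 and 83.8 after 1 h, 46.5 and 39.5 after 3 h, and 38.5 and 35.2 after 5 h. The targeted mRNA was thus not lower under the Nat10-deficient label at 0, 3 or 5 h, and counts over the whole gene cannot show whether part of it was removed. All directions below rest on the genotype labels. Totals ranged from 13516675 to 17274128 counts in libraries labelled Nat10-deficient and from 9142413 to 14000072 in WT. Immunoglobulin genes took 3.89% to 24.6% of gene counts in libraries labelled Nat10-deficient and 3.61% to 59.7% in WT, where the share was 3.62% at 0 h, 25.6% after 1 h, 49.4% after 3 h and 59.5% after 5 h. Synthetic ERCC RNAs, of which the labels give the same amount to every library, took 0.0221% to 0.129% against 1.79% to 2.92%. The 12 LT-HSC markers summed to 365 to 902 TMM-scaled CPM in libraries labelled Nat10-deficient and 961 to 1902 in WT, with 1 marker, Hoxb5, at 0 in 1 library. The 8 plasma cell markers summed to 4041 to 31570 against 2566 to 166200, with Mzb1 at 0 in WT at 0 h. Other blood lineages also moved with the genotype labels and with time. At 0 h the summed markers stood at 1098 against 177 TMM-scaled CPM for eosinophils and 2885 against 1434 for neutrophils and monocytes. Erythroid markers stood at 1148 against 592, and at 4912 against 1210 after 5 h. Over all libraries megakaryocyte markers stood at 313.7 to 399.7 against 92.7 to 268, with Gp1bb at 0 in every library. Eosinophil markers reached 6065 after 3 h in libraries labelled Nat10-deficient and 3792 after 5 h in WT. Mast cell and basophil markers went from 400 at 0 h to 4192 after 3 h under the Nat10-deficient label. In WT B cell markers rose from 49.4 to 1729 after 5 h, while megakaryocyte markers fell from 267 to 94.0. The part of these lineages in the differences and courses below was not tested. The 2 files of a group differed little beyond counting noise (chi-square per degree of freedom 1.43 to 1.81), and in 8 of 8 groups their headers name the same alignment. Tests on the 16 files therefore measure the spread between files, which may be technical, and each comparison of genotypes or slopes was also run with the 2 files of a group summed. That leaves 1 library per group, so the model had to change too: a straight line over the hours for each genotype in place of group means, and genotype plus time for the mean of the times. Departures from these forms then count as spread, and summing and model form were not separated.

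Before actinomycin D, the reader Ythdf2 and the eraser Alkbh5 were the most abundant of the 10 mRNAs per exonic length, and Igf2bp2 was the least. Ythdf2 (ENSMUSG00000040025, chromosome 4, 131912223 to 131939614, minus strand, GRCm39 here and for the genes below) averaged 71.7 RPKM (TMM-scaled CPM per kilobase of exon) in the libraries labelled Nat10-deficient and 51.5 RPKM in WT. Alkbh5 (ENSMUSG00000042650, chromosome 11, 60427207 to 60449338, plus strand) averaged 37.7 and 27.1 RPKM, and Ythdf3 (ENSMUSG00000047213, chromosome 3, 16237376 to 16271201, plus strand), a cytoplasmic paralog of Ythdf2, 13.0 and 9.66 RPKM. These 3 genes kept ranks 1, 2 and 3 in both genotypes, and their libraries did not overlap with those of the next rank. In bulk RNA, fewer cells of a type and less RNA per cell cannot be told apart.

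The other members lay in a narrow middle range. Ythdf1 (ENSMUSG00000038848, chromosome 2, 180546170 to 180562742, minus strand), a reader linked to translation, averaged 7.94 RPKM in libraries labelled Nat10-deficient and 7.51 in WT. Mettl3 (ENSMUSG00000022160, chromosome 14, 52532298 to 52542585, minus strand) averaged 7.89 and 6.73 RPKM. Wtap (ENSMUSG00000060475, chromosome 17, 13185683 to 13213056, minus strand) averaged 6.56 and 5.53 RPKM. The libraries of Ythdf1 and Mettl3 overlapped in both genotypes, and so did those of Wtap and Fto (ENSMUSG00000055932, chromosome 8, 92040153 to 92395067, plus strand), which averaged 6.38 and 5.04 RPKM. Mettl14 (ENSMUSG00000028114, chromosome 3, 123161946 to 123179757, minus strand) stood at 3.88 RPKM, above the nuclear reader Ythdc1 (ENSMUSG00000035851, chromosome 5, 86952080 to 86984518, plus strand) at 3.61, in libraries labelled Nat10-deficient. In WT that order was turned, with Mettl14 at 2.12 RPKM and Ythdc1 at 3.24. Igf2bp2 (ENSMUSG00000033581, chromosome 16, 21877759 to 21982049, minus strand) was lowest at 0.58 and 0.48 RPKM, from 86 and 96 counts under the Nat10-deficient label and 65 and 67 in WT. Annotated exons of Mettl3 share 933 bases (18.4%) with Tox4 on the opposite strand, those of Ythdc1 631 bases (4.62%) with Gm43055, and those of Fto 448 bases (3.44%) with 2 antisense genes. Counting ignored strand, which bears on the overlaps of Mettl3 and Fto, while Gm43055 lies on the same strand as Ythdc1. The levels of these 3 genes are less certain.

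**Figure D1:**
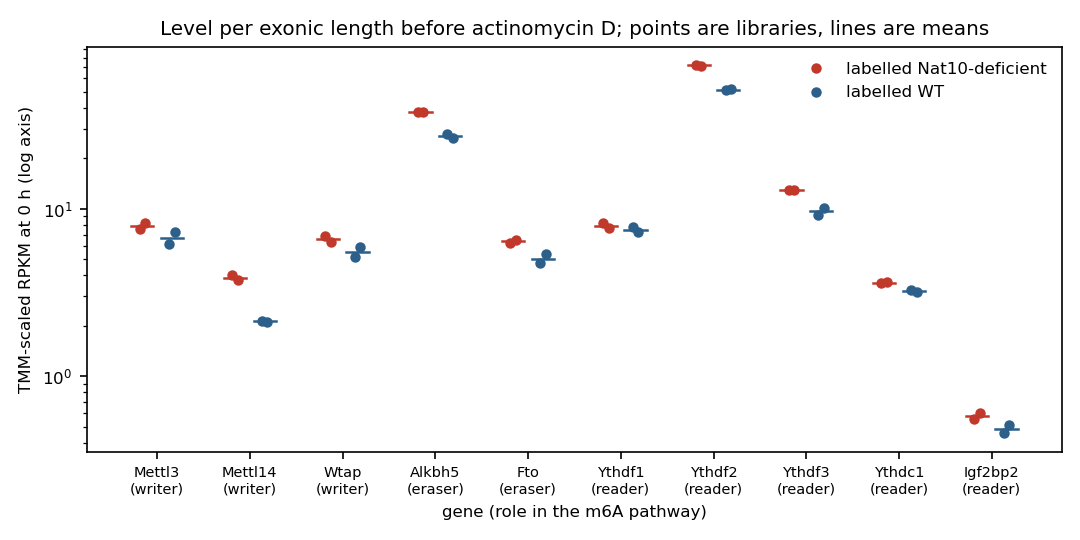
Level per exonic length at 0 h in TMM-scaled RPKM (vertical, log axis) for the 10 genes, grouped by role; points are single libraries, horizontal lines are means of 2, with libraries labelled Nat10-deficient on the left of each gene. Ythdf2 and Alkbh5 stand above the other 8 genes and Igf2bp2 below them in both genotypes.

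Over the 5 h of actinomycin D, Ythdf2 had the steepest slope among the writers, erasers and YTH readers, although Ythdf1 fell further in the first hour in WT (40.5% of its 0 h level left, against 48.6% for Ythdf2). Its level in the libraries labelled Nat10-deficient was 328 and 328 TMM-scaled CPM at 0 h, 135 and 140 after 1 h, 56.8 and 55.5 after 3 h, and 50.0 and 48.2 after 5 h. In WT it was 233 and 237 at 0 h, 114 and 114 after 1 h, 32.5 and 31.8 after 3 h, and 34.5 and 32.5 after 5 h. Each time up to 3 h lay wholly below the one before it in both genotypes. After 5 h TMM-scaled CPM stood at 15.0% of the 0 h level in libraries labelled Nat10-deficient and 14.2% in WT. Shares of the 0 h level, here and below, are relative to other genes and are not shares of mRNA remaining. On the ERCC scale mean Ythdf2 went from 6716 at 0 h to 153 after 5 h in libraries labelled Nat10-deficient, and from 68.3 to 2.09 in WT. With libraries scaled on ERCC counts the slope was -1.02 ± 0.01 log2 per hour (SE) in libraries labelled Nat10-deficient, a half-life of 0.979 h, and -0.98 ± 0.01 in WT, a half-life of 1.03 h. The slope was called with the files of a group summed, at an adjusted p of 2.2e-07 and 2.35e-06 (edgeR quasi-likelihood test, Benjamini-Hochberg adjustment). Of all genes tested, 13.2% had a lower slope than Ythdf2 in libraries labelled Nat10-deficient and 9.31% in WT.

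Ythdf3 stood close to Ythdf2 in the share of its 0 h level left after 1 h and 5 h in the libraries labelled Nat10-deficient. After 3 h it did not, with 40.4% left against 17.1% for Ythdf2. Ythdf3 in these libraries was at 69.8 and 69.1 TMM-scaled CPM at 0 h, 33.0 and 29.7 after 1 h, 28.2 and 27.9 after 3 h, and 11.1 and 11.8 after 5 h. In WT the values were 49.2 and 54.4 at 0 h, 36.8 and 37.6 after 1 h, 32.2 and 33.5 after 3 h, and 13.3 and 15.1 after 5 h. The fall in TMM-scaled CPM was stepwise. After 1 h it stood at 45.1% of the 0 h level in libraries labelled Nat10-deficient and 71.9% in WT, and after 5 h at 16.5% and 27.5%. The ERCC slopes were -0.94 ± 0.02 and -0.74 ± 0.02 log2 per hour, or half-lives of 1.06 h and 1.36 h.

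Ythdf2 and Ythdf3 were also the members of the 10 whose 3′ UTR holds the letters TATTTAT, the core of AU-rich elements that are known to bind destabilising proteins. Their sites are shown because these were the YTH genes with the steepest slopes, and the motif was chosen after the slopes had been seen. Each line gives 10 bases on either side of the motif, which is in capitals, 5′ to 3′ on the mRNA strand, from GENCODE vM21 transcripts (GRCm38).
Ythdf2 TATTTAT site: tttaaaggttTATTTATgcatatgagc
Ythdf3 TATTTAT site: gtctcttaacTATTTATaatgaaagtt
The Ythdf2 site lies at chr4:132185172-132185198 on the minus strand, 271 bases before the end of a 3′ UTR of 2012 bases. The Ythdf3 site lies at chr3:16215665-16215691 on the plus strand, in a 3′ UTR of 3059 bases. Among 3′ UTRs within 20% of these lengths, 41.4% and 54.1% hold the letters on the sense strand, against 26.1% of all 20662, so that a site is common at these lengths. No site was found in the 3′ UTR of the other 8 genes, which says only that these letters are not there.

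The letters GGACT, a frequent form of the m6A consensus, were searched in the same 3′ UTRs on the sense strand, without any measurement of methylation. Alkbh5 held 8 sites in 4097 bases, where the median 3′ UTR of similar length holds 3, and 3.2% of them hold as many or more. Ythdf2 held 3 sites, Wtap and Fto 2 each, Mettl3, Mettl14 and Igf2bp2 1 each, and Ythdf1, Ythdf3 and Ythdc1 none, while 54.9% of all 3′ UTRs hold at least 1. The 3 sites of Ythdf2, the YTH gene with the steepest slope, are shown with GGACT in capitals. Any link of these sites to its slope was not tested. Their number is common, since 27.6% of 3′ UTRs of similar length hold as many or more (median 2), while 91.5% of those of the length of Ythdf3, which has none, hold at least 1.
Ythdf2 GGACT site 1: aagaaaattaGGACTttttttctta
Ythdf2 GGACT site 2: aaaagacataGGACTtaactggaaa
Ythdf2 GGACT site 3: ttgtacccaaGGACTagaaacctgc
They lie on the minus strand of GRCm38 at chr4:132186832-132186856, chr4:132186751-132186775 and chr4:132185789-132185813. A match is a description of the letters, not of a methylated site.

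The remaining readers differed in the shape of their course. Ythdf1 stood at 27.2 and 25.5 TMM-scaled CPM at 0 h in libraries labelled Nat10-deficient, 15.1 and 13.4 after 1 h, 9.16 and 8.94 after 3 h, and 10.4 and 11.1 after 5 h. In WT it stood at 25.6 and 24.1 at 0 h, 8.66 and 11.5 after 1 h, 3.91 and 4.40 after 3 h, and 11.3 and 9.10 after 5 h, so that its 5 h libraries lay above those of 3 h in both genotypes. Ythdc1, which binds m6A in the nucleus, went different ways in the 2 genotypes. In libraries labelled Nat10-deficient it was 48.8 and 49.8 at 0 h, 32.8 and 33.1 after 1 h, 18.8 and 18.8 after 3 h, and 29.9 and 28.8 after 5 h. In WT it was 44.9 and 43.5 at 0 h, 34.9 and 30.7 after 1 h, 42.7 and 46.2 after 3 h, and 37.0 and 42.6 after 5 h. At 3 h TMM-scaled CPM stood at 38.2% of the 0 h level in libraries labelled Nat10-deficient and at 101% in WT. On the ERCC scale mean Ythdc1 went from 1010 at 0 h to 105 after 3 h in libraries labelled Nat10-deficient, and from 12.8 to 5.63 in WT. Igf2bp2 had 105 and 82 counts after 1 h, 25 and 27 after 3 h, and 30 and 20 after 5 h in libraries labelled Nat10-deficient. Its WT libraries had 8 and 11 counts after 1 h, 24 and 21 after 3 h, and 0 and 0 after 5 h. The WT course of Igf2bp2 was thus irregular, and with the 5 h group held at 3 counts its level after 5 h was at least 12.8-fold lower than at 0 h.

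After 5 h, writers and erasers had kept more of their mRNA, relative to other genes, than Ythdf2 and Ythdf3. In WT after 3 h this did not hold for Ythdf3, which stood at 63.5% of its 0 h level, above Alkbh5 (56.5%), Fto (48.9%), Wtap (48.7%) and Mettl3 (48.2%). Mettl3 in libraries labelled Nat10-deficient stood at 38.2 and 41.9 TMM-scaled CPM at 0 h, 52.2 and 51.6 after 1 h, 41.6 and 39.1 after 3 h, and 55.9 and 50.7 after 5 h. In WT it stood at 31.2 and 37.1 at 0 h, 29.1 and 25.1 after 1 h, 16.7 and 16.2 after 3 h, and 29.4 and 33.7 after 5 h. The 1 h and 5 h libraries labelled Nat10-deficient lay above those of 0 h, whereas in WT the 3 h libraries lay lowest. Mettl14, which holds RNA in the Mettl3 complex, kept 80.1% of its 0 h level after 5 h in libraries labelled Nat10-deficient, and 44.5% in WT, where it stood at 104% after 3 h. Wtap, which brings the complex to nuclear speckles, kept 51.3% and 49.6%. Alkbh5 kept 64.3% and 65.6%, and Fto, the other eraser, 71.5% and 85.2%.

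**Figure D2:**
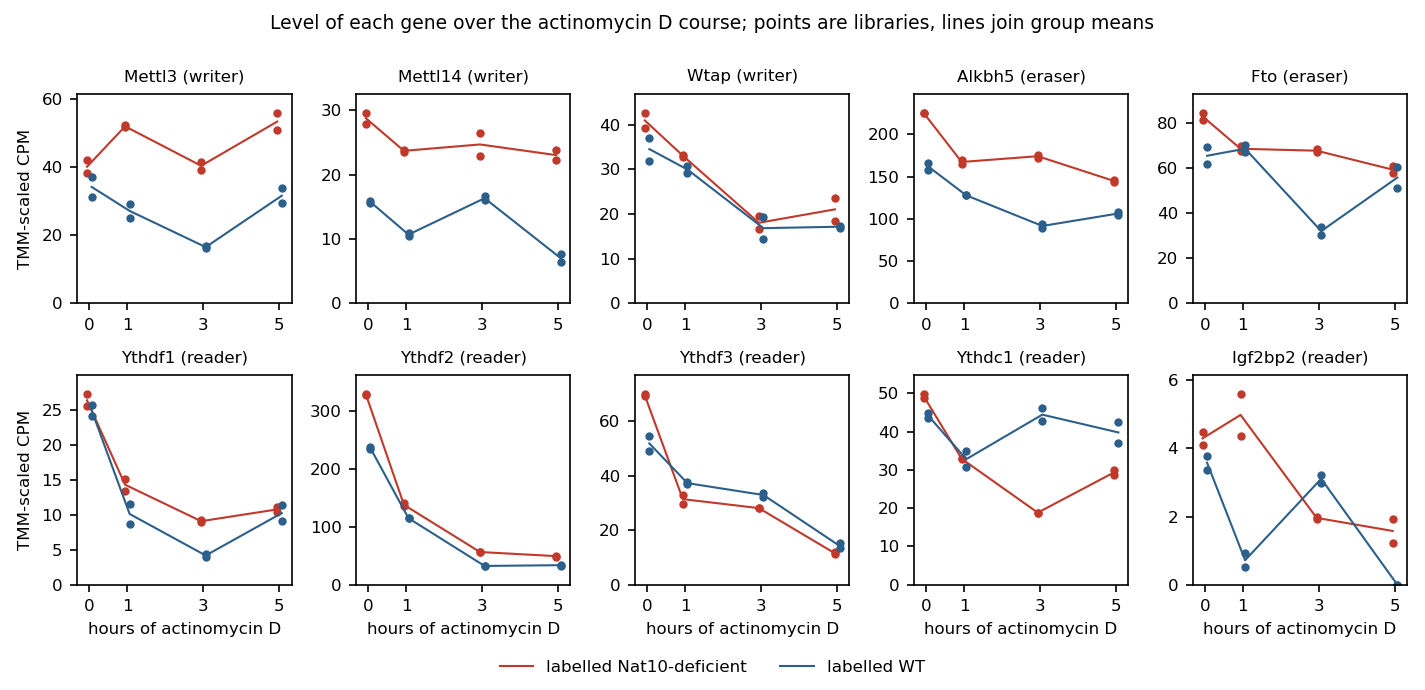
TMM-scaled CPM (vertical, linear from 0, own scale per gene) against hours of actinomycin D for the 10 genes; points are libraries and lines join the means of 2, in red for libraries labelled Nat10-deficient and blue for WT. Ythdf2 falls to 15.0% and 14.2% of its 0 h level after 5 h, Ythdc1 parts after 3 h, and Igf2bp2 is at 0 counts in WT after 5 h.

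Relative to other genes, the change over time was tested against 0 h, and the 1 h and 5 h tests of a genotype share the 0 h libraries. In libraries labelled Nat10-deficient after 1 h, 8 members were lower and 1, Mettl3, higher (26.7% and 23.2% of all genes), and after 5 h 9 were lower and Mettl3 higher (33.6% and 31.8%). In WT 9 were lower after 1 h (31.6% of all genes) and 8 after 5 h (34.1%). Ythdf2 was lower after 5 h by log2 fold change -2.74 ± 0.04 in libraries labelled Nat10-deficient (edgeR, adjusted p = 2.25e-147) and -2.81 ± 0.06 in WT. Mettl3 was higher after 5 h in libraries labelled Nat10-deficient by log2 0.41 ± 0.07, while WT gave -0.12 ± 0.10 (adjusted p = 0.327). With libraries scaled on long-lived mRNAs instead, which lowered the 5 h changes of all genes by -0.89 and -0.84, all 10 members were lower after 5 h in both genotypes (55.8% of all genes in libraries labelled Nat10-deficient and 50.7% in WT), and Mettl3 fell by 0.49 on the log2 scale in libraries labelled Nat10-deficient. On that scale 8 members were lower in WT after 1 h and 1, Fto, higher by 0.17 (27.5% and 33.3% of all genes). Leaving out any 1 WT library after 3 h or 5 h ended the calls of Mettl14 in libraries labelled Nat10-deficient (-0.18 after 1 h and -0.14 after 5 h), and leaving out replicate 1 labelled Nat10-deficient at 0 h ended that after 1 h (-0.24). Without any 1 of the same 4 WT libraries, Fto in libraries labelled Nat10-deficient moved to -0.18 after 1 h and -0.31 after 5 h, and Fto in WT after 1 h was called higher (0.15). In WT, Mettl3 after 1 h lost its call without replicate 2 at 0 h (-0.19), Fto after 5 h without replicate 2 at 0 h (-0.14) or 5 h (-0.09), giving -0.33 without replicate 1 at 5 h, and Wtap after 1 h without replicate 2 at 0 h or any 1 WT library at 1, 3 or 5 h (-0.09 to -0.24), giving -0.30 without replicate 1 at 0 h. These comparisons were not run with summed files, since 1 library per group leaves no spread for a group mean.

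On the ERCC scale all 10 members fell over the hours in both genotypes, with TMM scaling as the exception, where Mettl3 had a slope of 0.05 log2 per hour in libraries labelled Nat10-deficient (adjusted p = 9.57e-04) and Ythdc1 of 0.01 in WT (adjusted p = 0.935). Of all genes tested, 71.3% fell in libraries labelled Nat10-deficient and 57.4% in WT, and the 10 of 10 stand beside a background in which most genes fall. The median slope of the 10 was -0.67 log2 per hour in libraries labelled Nat10-deficient, against -0.48 over all genes, and -0.59 in WT, against -0.36. After Ythdf2 and Ythdf3, the slopes in libraries labelled Nat10-deficient were -0.83 ± 0.05 for Igf2bp2, -0.73 ± 0.02 for Ythdf1, -0.70 ± 0.02 for Wtap and -0.65 ± 0.02 for Ythdc1. Alkbh5 at -0.59 ± 0.01, Fto at -0.57 ± 0.01, Mettl14 at -0.53 ± 0.02 and Mettl3 at -0.44 ± 0.01 were shallower, with half-lives of 1.70 h, 1.76 h, 1.87 h and 2.26 h. Half-lives here, above and below belong to the ERCC scale and invert a straight line over the hours. Some WT means rose on that scale: from 1 h to 3 h Ythdc1 from 4.95 to 5.63 and Mettl14 from 1.61 to 2.07. Ythdf1 rose from 0.526 after 3 h to 0.637 after 5 h. A rise is not decay, so for such courses the half-life describes the fitted line only. TMM scaling raised the slopes by 0.49 log2 per hour in libraries labelled Nat10-deficient and by 0.39 in WT. With it, Alkbh5, Fto and Mettl14 had 9.87 h, 12.2 h and 21.2 h in libraries labelled Nat10-deficient, and Ythdf2 had 1.87 h there and 1.72 h in WT. In WT Ythdf1 had -0.65 ± 0.03 and Wtap -0.62 ± 0.02 log2 per hour. Mettl14 had -0.56 ± 0.03, Alkbh5 -0.52 ± 0.01, Fto -0.49 ± 0.01, Mettl3 -0.44 ± 0.02 and Ythdc1 -0.39 ± 0.02, for half-lives of 1.79 h to 2.58 h. The WT slope of Igf2bp2 rests on 0 counts after 5 h, and without the 5 h libraries it was -0.26 ± 0.10 (adjusted p = 0.0128). Summing the files of a group left all 10 called in both genotypes (35.4% and 26.7% of all genes fell in that fit), with adjusted p of at most 0.0201 in libraries labelled Nat10-deficient and 0.0427 in WT. With summed files and TMM factors, which measure loss relative to other genes, Ythdf3 in libraries labelled Nat10-deficient (adjusted p = 0.0475) and Ythdf2 in WT (adjusted p = 0.0322) were the 2 calls left among the members (1.14% and 1.85% of all genes fell).

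**Figure D3:**
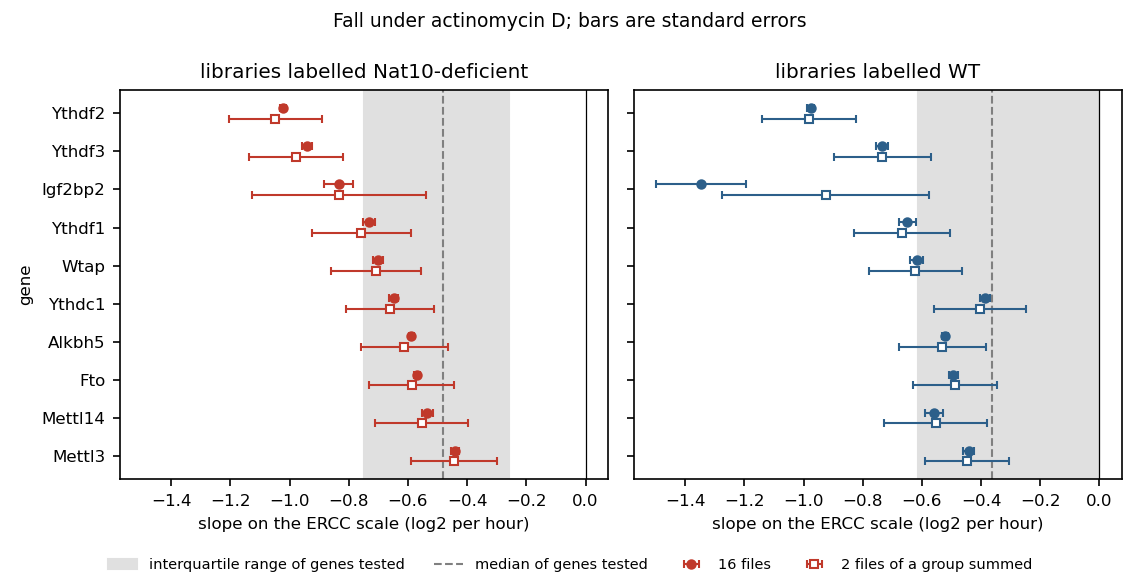
Slope over 0, 1, 3 and 5 h on the ERCC scale (horizontal, log2 per hour) for the 10 genes, with libraries labelled Nat10-deficient on the left and WT on the right; filled points come from the 16 files and open squares from summed files, bars are standard errors, and the grey band and dashed line are the interquartile range and the median of all genes tested. The filled points of Ythdf2, Ythdf3 and Igf2bp2 lie left of the band in both panels, and those of Ythdf1 and Wtap in WT. The filled WT point of Igf2bp2 rests on 0 counts after 5 h.

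The slopes of the 2 genotypes were close for most members. The difference, libraries labelled Nat10-deficient minus WT, was called lower for 6 members and higher for 1 (32.1% and 15.7% of all genes). Ythdc1 had the largest steepening, -0.26 ± 0.02 log2 per hour (edgeR interaction contrast, adjusted p = 8.88e-26), followed by Ythdf3 with -0.21 ± 0.03 (adjusted p = 1.56e-09). Wtap (-0.08 ± 0.03), Fto (-0.08 ± 0.02), Alkbh5 (-0.07 ± 0.01) and Ythdf2 (-0.05 ± 0.02) differed by less than the all-gene median of -0.10. Mettl3, with -0.44 in both genotypes, Mettl14 (0.02 ± 0.04) and Ythdf1 (-0.08 ± 0.04) did not pass. Igf2bp2 had 0.51 ± 0.22, but this rests on the 0 counts of WT after 5 h and was -0.73 ± 0.14 without the 5 h libraries. With summed files no member was called (adjusted p from 0.955 to 1, 0 at an unadjusted p under 0.05), and 0.279% of all genes were. With TMM scaling 4 members were higher and 2 lower (24.5% and 24.2% of all genes), on the long-lived mRNA scale 3 and 2 (23.1% and 25.4%), and with TMM factors Wtap, Ythdf2, Alkbh5 and Fto changed sign. Leaving out replicate 1 or 2 of WT after 5 h left 3 or 4 members called in place of 7. The call of Fto was lost without replicate 1 of WT after 5 h (-0.05). That of Ythdf2 was lost without either WT library after 5 h, replicate 1 of WT at 0 h or replicate 2 labelled Nat10-deficient at 0 h (-0.04 to -0.05). That of Wtap was lost without replicate 1 labelled Nat10-deficient after 5 h, replicate 1 of WT at 0 h or 3 h, or either WT library after 5 h (-0.05 to -0.09). That of Igf2bp2 was lost without replicate 1 labelled Nat10-deficient after 5 h, replicate 2 of WT after 1 h or either WT library after 5 h (0.46 to 0.49), and Ythdf1 was called without replicate 2 of WT after 1 h (-0.10).

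The comparison of genotypes at 0 h asks how these mRNAs stood before transcription was blocked. Mettl14 differed most: it stood at 29.6 and 27.9 TMM-scaled CPM in libraries labelled Nat10-deficient, against 15.9 and 15.6 in WT, a log2 difference of 0.87 ± 0.09 (edgeR quasi-likelihood test, adjusted p = 1.68e-16). Alkbh5 stood at 226 and 225 against 166 and 158 (0.48 ± 0.04), and Ythdf2 at the 0 h levels given above differed by 0.48 ± 0.03. Ythdf3 differed by 0.42 ± 0.06, Fto by 0.34 ± 0.05, Wtap by 0.25 ± 0.08, Mettl3 by 0.23 ± 0.07 and Ythdc1 by 0.16 ± 0.07. The call was lost for Mettl3 without replicate 2 labelled Nat10-deficient (0.16) or replicate 1 of WT (0.11) at 0 h, and Mettl3 gave 0.36 without replicate 2 of WT. It was lost for Wtap without replicate 1 of either group (0.19 and 0.14) and for Ythdc1 without any 1 of these 4 libraries (0.14 to 0.18). In all, 8 members were higher in libraries labelled Nat10-deficient and 0 lower, by edgeR, while 36% of all genes were higher and 24.2% lower. DESeq2 called 5 and 0 (26.6% and 22.8% of all genes). Ythdf1 (0.08 ± 0.10, adjusted p = 0.501) and Igf2bp2 (0.26 ± 0.23, adjusted p = 0.332) did not pass. The libraries of the 2 genotypes overlapped for Ythdf1, and for Mettl3 and Wtap the lower libraries labelled Nat10-deficient, at 38.2 and 39.3, lay just above the upper WT libraries, both at 37.1. With 2 near-identical files per group a lack of overlap says little about a gene, and its share over all genes was not counted.

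The direction at 0 h depends on how libraries are scaled. On the long-lived mRNA scale, which moved all genes by -0.34, 3 members were higher, Mettl14 by 0.53, Ythdf2 by 0.14 and Alkbh5 by 0.13, and 2 lower, Ythdf1 by -0.26 and Ythdc1 by -0.18 (23.2% and 37% of all genes). On the ERCC scale all 10 were higher, by 6.22 to 7.01, where 87.3% of all genes were higher. With the files of a group summed and straight lines, 0 members were called (edgeR, adjusted p from 0.979 to 1), 0 of the 10 had an unadjusted p under 0.05, and 0% of all genes were called.

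After actinomycin D the genotype difference of Mettl3 was larger than at 0 h at each of the 3 later times, that of Mettl14 after 1 h and 5 h but not 3 h, and Ythdc1 was lower after 3 h and 5 h. Mettl3 was higher in libraries labelled Nat10-deficient by log2 0.93 ± 0.08 after 1 h, 1.29 ± 0.11 after 3 h and 0.76 ± 0.10 after 5 h. Mettl14 was higher by 1.15 ± 0.11, 0.60 ± 0.13 and 1.71 ± 0.17. Alkbh5 was higher by 0.39 ± 0.04, 0.93 ± 0.05 and 0.45 ± 0.05, and Ythdf2 by 0.27 ± 0.04, 0.80 ± 0.08 and 0.55 ± 0.08. These 4 genes were called higher at each of the 4 times, while Fto and Ythdf1 were called at some: Fto by 1.08 ± 0.08 after 3 h, and Ythdf1 by 0.52 ± 0.13 after 1 h and 1.12 ± 0.22 after 3 h. Ythdc1 was lower by -1.24 ± 0.10 after 3 h and -0.43 ± 0.10 after 5 h, and Ythdf3 by -0.25 ± 0.08 after 1 h and -0.23 ± 0.10 after 3 h. Igf2bp2 had 105 and 82 counts against 8 and 11 after 1 h (2.84 ± 0.34). After 3 h it had 25 and 27 against 24 and 21, with both libraries below WT in TMM-scaled CPM, and did not pass (-0.66 ± 0.35, adjusted p = 0.086). After 5 h it had 50 counts in all against 0, which makes it at least 5.62-fold higher with the WT group held at 3 counts. Wtap was called after 5 h by 0.30 ± 0.14 (adjusted p = 0.0455), and gave 0.11 without replicate 2 labelled Nat10-deficient and 0.46 to 0.49 without replicate 1, either WT library after 3 h or replicate 2 of WT after 5 h. Without 1 library, calls were also lost for Ythdf1 after 1 h (0.31 without replicate 1 of WT), for Ythdf3 after 1 h (-0.17 without replicate 2 labelled Nat10-deficient) and for Ythdc1 after 5 h (-0.17 without replicate 2 of WT, and -0.26, still called, without either WT library after 3 h). Fto after 5 h was called without either WT library after 3 h (0.25 each) or replicate 1 of WT after 5 h (0.39). Ythdf3 after 3 h lost its call without either library labelled Nat10-deficient or without replicate 2 of WT (-0.22 to -0.23). In all, 6 members were higher and 1 lower after 1 h (32.4% and 31.8% of all genes), 6 and 2 after 3 h (30.4% and 37%), and 6 and 1 after 5 h (34.2% and 30.1%). For 5 h, DESeq2 gave 5 and 2 (28% and 29.3%), and a fit without immunoglobulin genes 8 and 0 (41.3% of all genes higher).

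On the long-lived mRNA scale these splits were 3 higher and 6 lower after 1 h (18.1% and 48.1% of all genes), 3 and 4 after 3 h (12.4% and 57.8%), and 3 and 3 after 5 h (26.2% and 36.5%). That scale moved all genes by -0.52, -0.77 and -0.39, and the sign of Mettl3 stayed positive at these 3 times while that of Mettl14 turned after 3 h, to -0.18. With summed files and straight lines 0 members were called at 1, 3 or 5 h, with lowest adjusted p of 0.445, 0.0705 and 0.227, while 2, 3 and 1 had an unadjusted p under 0.05. In that fit 0%, 4.03% and 0% of all genes were called. WT after 3 h and 5 h, where Ythdc1 was called lower in the other genotype, were also the groups with the highest immunoglobulin shares, and the part of that share in these differences was not tested.

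**Figure D4:**
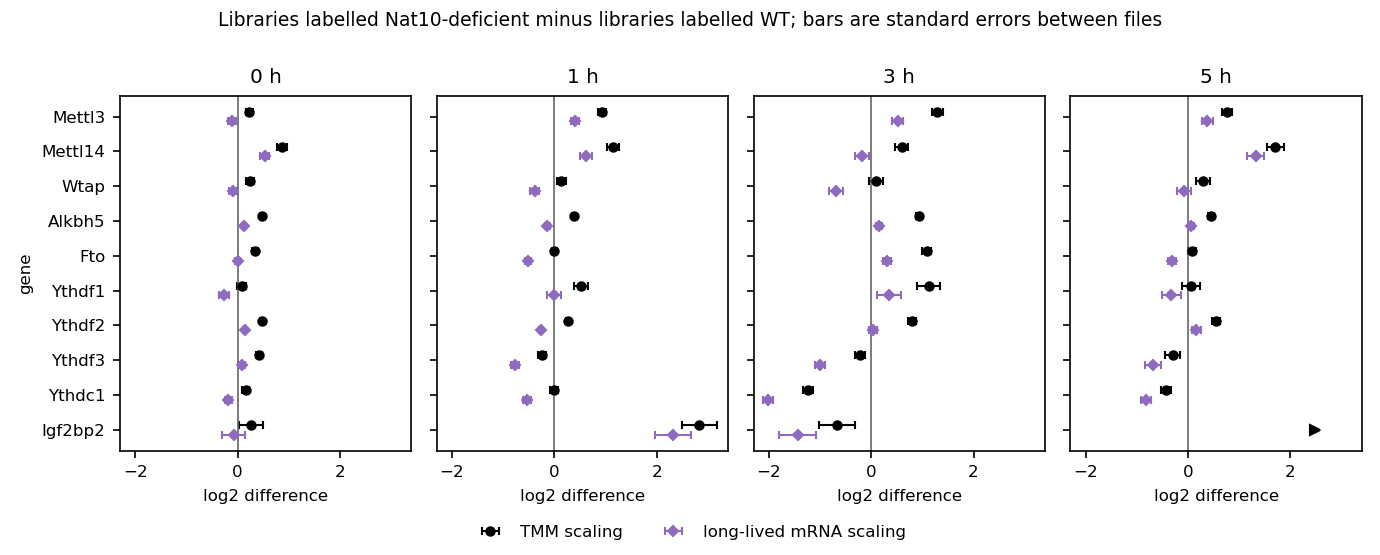
Log2 difference, Nat10-deficient label minus WT (horizontal), at 0, 1, 3 and 5 h for the 10 genes; circles use TMM factors, diamonds the long-lived mRNA scale, bars are standard errors between files, and the triangle is the bound for Igf2bp2 after 5 h. Mettl3 and Mettl14 stand at 0.93 and 1.15 after 1 h with TMM factors, Ythdc1 at -1.24 after 3 h, and every diamond lies left of its circle.

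Averaged over the 4 times with TMM factors, the core methyltransferase pair differed more than the other members, apart from Igf2bp2. Mettl14 was higher in libraries labelled Nat10-deficient by log2 1.08 ± 0.06 and Mettl3 by 0.80 ± 0.05 (edgeR, adjusted p = 2.92e-41 and 6.75e-44). Alkbh5 was higher by 0.56 ± 0.02, Ythdf2 by 0.52 ± 0.03, Ythdf1 by 0.45 ± 0.08, Fto by 0.38 ± 0.03 and Wtap by 0.20 ± 0.06, or 0.30 without replicate 1 of WT after 3 h. Ythdc1 was lower by -0.38 ± 0.04 and Ythdf3 did not pass (-0.09 ± 0.05). Igf2bp2, whose average holds 0 counts in WT after 5 h, was higher by 0.81 ± 0.18 without the 5 h libraries (adjusted p = 4.08e-05). That gives 8 members higher and 1 lower, where 31.6% and 21.6% of all genes were called, and DESeq2 gave 7 and 2 (26.4% and 30.1%). The median over the 10 was 0.48, against 0.11 over all genes. With summed files 0 members were called, with adjusted p of 0.119 for Mettl14, 0.16 for Mettl3, 0.224 for Alkbh5 and 0.259 for Ythdf2. These 4 had an unadjusted p under 0.05, and 0.0678% of all genes were called. On the long-lived mRNA scale 4 members were higher and 4 lower (15.6% and 36.7% of all genes), with Wtap, Ythdf1 and Fto below 0. That scale moved all genes by -0.50 and put Ythdc1 lowest, at -0.89, so the order of sizes given above holds for TMM factors. The summed LT-HSC markers were lower in libraries labelled Nat10-deficient at each time, by group 834 against 1900 TMM-scaled CPM at 0 h and 367 against 1244 after 5 h, and their part in these differences was not tested.

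Beyond the 10 members, 20 further genes of the pathway were counted, among them writer cofactors, other RNA methyltransferases and proposed readers. All 20 passed the filter. At 0 h 13 were higher in libraries labelled Nat10-deficient and 3 lower, with a median log2 difference of 0.34 (36% and 24.2% of all genes, whose median was 0.10). The smallest p among those higher belonged to Hnrnpa2b1 (0.63 ± 0.02), a nuclear RNA-binding protein proposed as a reader, and G3bp1 (0.42 ± 0.02), a stress granule protein. Among those lower they belonged to Zc3h13 (-0.37 ± 0.06), a nuclear anchor of the writer complex, and Fmr1 (-0.44 ± 0.11), an RNA-binding protein of neurons and other cells. Over the mean of the times 15 were higher and 2 lower (31.6% and 21.6% of all genes), led by Hnrnpa2b1 (0.93 ± 0.01) and G3bp1 (0.83 ± 0.01) upward and by Ythdc2 (-0.71 ± 0.10), a helicase with a YTH domain, and Rbm15b (-0.26 ± 0.09), a writer adaptor, downward. The call of Rbm15b was lost without replicate 2 of WT after 3 h or after 5 h (-0.20 each). With summed files 0 of the 20 were called at 0 h or over the mean. On the long-lived mRNA scale 8 were higher and 6 lower at 0 h (23.2% and 37% of all genes), and 7 and 7 over the mean (15.6% and 36.7%).

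On the ERCC scale all 20 fell in libraries labelled Nat10-deficient and 19 in WT, where 71.3% and 57.4% of all genes fell. The slope difference was positive and called for 4 of the 20 and negative for 8, where 15.7% and 32.1% of all genes were called. The smallest p belonged to Rbm15 (0.42 ± 0.05 log2 per hour), another writer adaptor, and G3bp1 (0.06 ± 0.01) upward, and to Mettl16 (-0.17 ± 0.02), a methyltransferase of U6 RNA, and Virma (-0.17 ± 0.02), a scaffold of the writer complex, downward. Rbm15 had 319 and 283 counts after 5 h in libraries labelled Nat10-deficient against 15 and 15 in WT, and without the 5 h libraries its slope difference was -0.09. With summed files 0 of the 20 slope differences were called.

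Transcripts of 6 blood regulators that have been linked to m6A in blood cells were listed beside the pathway. At 0 h Myc, a growth regulator, was higher in libraries labelled Nat10-deficient by log2 0.23 ± 0.03. Gata2 (-1.07 ± 0.04) and Tal1 (-0.84 ± 0.11), both stem and progenitor cell transcription factors, were lower, as were the cytokine signal transducer Stat5b (-0.39 ± 0.06) and the Polycomb gene Bmi1 (-0.27 ± 0.11), whose call was lost without replicate 1 of either group at 0 h (-0.23 and -0.14). Runx1 did not pass (-0.02 ± 0.05). With TMM factors 1 of the 6 was called higher and 4 lower, beside background shares of 36% and 24.2% among tested genes. On the long-lived mRNA scale all 6 were lower, where the background shares were 23.2% for higher and 37% for lower. With summed files 0 of the 6 were called, and the background share was 0%.

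Patterns over the 8 group means of log2 TMM-scaled CPM were compared with 7929 genes of at least 10 TMM-scaled CPM (7930 for Igf2bp2, itself below that level), as a description over points that share libraries and depth. Ythdf2 was most like Rab1a (Pearson r = 0.992) and Ythdf3 most like Emp1 (0.99). Mettl3 was nearest to Tmed1 (0.987), Wtap to Maml3 (0.987), Mettl14 to Cyb561d2 (0.977) and Ythdf1 to Slco3a1 (0.976). Alkbh5 was nearest to Myh9 (0.978), Fto to Mxd4 (0.98), Igf2bp2 to Pds5b (0.979) and Ythdc1 to Txlng (0.951). Ythdf2 had 71 genes over 0.95 and Ythdc1 had 1, so the course of Ythdc1 was shared by the fewest. Among the members themselves Ythdf2 and Wtap were most alike (r = 0.973), and Mettl3 and its partner Mettl14 had r = 0.49.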

How the data were processed

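Fragment counts per gene from 16 libraries were used as deposited. The authors made these counts with featureCounts 1.6.3 over exons, ignoring strand and requiring both ends to map, per the file headers; STAR, DESeq2 and GRCm39 are named in the submitters' processing notes. Totals were 9142413 to 17274128 counts per library. No molecular identifiers are named, so PCR copies may repeat a molecule, and bounds at 0 (3 counts over the group) cover counting error only.

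The members and lists were chosen with earlier results of these data known. Named genes are all 10 members, Nat10, the 2 pathway genes of smallest p in each direction, 6 blood regulators, and the gene nearest in pattern to each member. Symbols came from a reference table by gene identifier (52081 of 55414 matched), coordinates from the deposited files, and 3′ UTRs from GENCODE vM21. Tests used edgeR 4.0.16 in R 4.3.3 (quasi-likelihood F test on 8 group means, 25081 genes kept by filterByExpr, Benjamini-Hochberg adjustment over them, threshold 0.05, two-sided), checked on simulated counts. The simulation drew independent libraries at the spread between files and used TMM factors. It did not cover ERCC scaling, files that are technical copies or summed files. Genotypes, and times against 0 h, were compared with TMM factors. Slopes were linear contrasts over 0, 1, 3 and 5 h on ERCC-scaled libraries, with half-lives from the inverted slopes. Each SE came from the estimate and its F statistic. CPM and RPKM were computed here from the deposited counts with TMM factors; RPKM used the exonic length in the files.

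Alternatives were DESeq2 1.42.0 and its size factors, scaling on ERCC counts, on 22 long-lived mRNA identifiers or with TMM, no low-count filter, immunoglobulin genes left out, a replicate block, each library left out, and the 2 files of a group summed, with a straight line over hours per genotype in place of group means (4 residual degrees of freedom), or genotype plus time for the mean (3). The biological coefficient of variation was 0.923 with summed files, which includes departures from the lines, and 0.135 between files. Summed files with TMM, and 5 h libraries left out, were added after the data were seen.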

Additional observations from a re-analysis of the deposited data

Results flagged for a closer look

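For 7 of the 10 members the slope under actinomycin D on the ERCC scale differed between the genotypes by the interaction test (edgeR, libraries labelled Nat10-deficient minus WT, log2 per hour). The difference was -0.26 for Ythdc1, -0.21 for Ythdf3, -0.083 for Wtap, -0.076 for Fto, -0.068 for Alkbh5 and -0.046 for Ythdf2, and 0.51 for Igf2bp2. Of all genes tested, 32.1% had a lower slope and 15.7% a higher one, and with the 2 files of a group summed and a straight line per genotype none of the 7 was called. Ythdc1 and Ythdf3 kept a negative sign with TMM scaling, on the long-lived mRNA scale, with summed files and without the 5 h libraries. Igf2bp2 had 0 counts in both WT libraries after 5 h, and without the 5 h libraries its difference was -0.73. No group has 4 or more samples, so single libraries were not screened for distance from their group.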

How the results depend on the processing

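Depth limits Igf2bp2 most, with 0 counts in both WT libraries after 5 h. Genotype and sorted cells, immunoglobulin share and ERCC share move together, and with 2 near-identical files per group the genotypes cannot be told apart from their cultures; the cause of no change below was tested unless stated. With the files of a group summed, the model also changed from group means to a straight line per genotype (genotype plus time for the mean), so that values at single times are points on a line, and the 2 changes were not separated. Members called for the genotype difference were 0 at 0 h, 0 after 1 h, 0 after 3 h, 0 after 5 h and 0 over the mean, in place of 8, 7, 8, 7 and 9, and 0 in place of 7 for the slope difference, while the 20 slope calls were kept. The fitted values had the other sign for Mettl14 (slope difference -0.00104 log2 per hour), Ythdf3 after 1 h (0.0909) and Igf2bp2 after 3 h (1.08). Summed files with TMM factors called 1 slope in place of 10 in libraries labelled Nat10-deficient, 1 in place of 10 in WT and 0 slope differences. Over all genes summed files called 0, 0, 1012 and 0 genes at the 4 times, 17 over the mean and 70 slope differences, in place of 15119, 16097, 16914, 16109, 13346 and 11982. They called 8891 slopes in libraries labelled Nat10-deficient and 6897 in WT in place of 18693 and 17192, and with TMM factors 297, 652 and 0 slope differences.

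At 0 h 5 members were called higher and 0 lower with DESeq2 (26.6% and 22.8% of all genes), and 5 and 0 with its size factors in edgeR. On the long-lived mRNA scale 3 were higher and 2 lower (23.2% and 37%). Leaving out 1 library gave 5 to 8 members called at 0 h, with 5 without replicate 1 of WT, and 3 to 7 slope differences. Shares over all genes are not given for the size factors or the left-out libraries, so these counts describe stability only. Of 120 values for the members, 101 kept sign and side of the threshold with DESeq2, and 113 without the filter on low counts. Of 90, 74 did with DESeq2's size factors and 80 without immunoglobulin genes, and 1842 of 1920 did with 1 library left out. DESeq2's size factors gave the same numbers higher and lower as DESeq2 for each genotype difference.

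The remaining values are those whose sign turned, as log2 differences or, for slopes, log2 per hour. With DESeq2 and then its size factors, Mettl3 in WT after 5 h against 0 h gave 0.0231 and 0.0227, Wtap after 3 h -0.154 and -0.156, Ythdf1 at 0 h -0.0209 and -0.0213, Ythdf1 after 5 h -0.00112 and -0.00226, and Fto after 1 h -0.114 and -0.113. DESeq2 gave -0.000131 for the Mettl3 slope difference. With TMM scaling and then with summed files besides, the Mettl3 slope in libraries labelled Nat10-deficient was 0.0454 and 0.0438, the Ythdc1 slope in WT 0.00626 and 0.00422, and the slope difference 0.011 and 0.0115 for Wtap, 0.0474 and 0.0334 for Ythdf2, 0.0255 and 0.0194 for Alkbh5 and 0.0172 and 0.0021 for Fto; that of Ythdf1 was 0.012 with TMM scaling. Without the 5 h libraries, an alternative chosen after the data were seen, the slope difference was -0.334 for Mettl14, 0.123 for Ythdf1, 0.0726 for Fto, -0.733 for Igf2bp2 and -0.0897 for Rbm15. Without immunoglobulin genes Ythdf3 gave 0.0555 after 5 h and 0.034 over the mean, Ythdc1 0.0605 after 1 h and Runx1 0.0455 at 0 h. With no filter Ythdc1 gave 0.0415 after 1 h.

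On the ERCC scale nearly all genes were higher in libraries labelled Nat10-deficient. Ythdf3 turned to 5.49 after 1 h, 5.23 after 3 h, 5.34 after 5 h and 5.66 over the mean, Ythdc1 to 5.73, 4.22, 5.21 and 5.37, and Igf2bp2 to 4.78 after 3 h. At 0 h Zc3h13 turned to 5.77, Fmr1 to 5.7, Tal1 to 5.3, Gata2 to 5.07, Runx1 to 6.12, Stat5b to 5.75 and Bmi1 to 5.88, and over the mean Ythdc2 to 5.03 and Rbm15b to 5.48. Against 0 h in libraries labelled Nat10-deficient, Mettl3 gave -0.975 after 1 h and -2.31 after 5 h and Igf2bp2 -1.13 after 1 h, and Fto gave -0.878 in WT after 1 h. On the long-lived mRNA scale the 0 h differences were -0.107 for Mettl3, -0.0923 for Wtap, -0.262 for Ythdf1, -0.184 for Ythdc1, -0.0758 for Igf2bp2 and -0.107 for Myc. Wtap was -0.384 after 1 h, -0.684 after 3 h, -0.0852 after 5 h and -0.311 over the mean. Ythdf1 was -0.0017 after 1 h, -0.325 after 5 h and -0.0605 over the mean. Fto was -0.52 after 1 h, -0.306 after 5 h and -0.13 over the mean. Mettl14 was -0.181 after 3 h, Ythdf2 -0.258 and Alkbh5 -0.134 after 1 h, and Mettl3 against 0 h in libraries labelled Nat10-deficient -0.485 after 5 h. The slope difference there was 0.0324 for Ythdf2, 0.0105 for Alkbh5 and 0.00221 for Fto.

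With 1 library left out, signs turned within -0.017 to 0.151 for Fto in WT after 1 h against 0 h, -0.0313 to 0.0318 for Fto after 1 h, -0.242 to 0.00789 for Mettl3 in WT after 5 h against 0 h, -0.0234 to 0.0227 for the Mettl3 slope difference, -0.0535 to 0.0078 for Runx1 at 0 h, -0.132 to 0.28 for Wtap after 3 h and -0.0852 to 0.0999 for Ythdc1 after 1 h.

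No pairing by replicate number was seen: over 28 pairs of groups, same-numbered libraries deviated from their group means with a correlation of -0.0133 to 0.0187 (median 0.00413), and 0 pairs passed 0.1. Files that differ little beyond counting noise would give such values with or without paired cultures. Neither these correlations nor the block fit can therefore decide whether the libraries were paired. With replicate number as a block, all 120 member values kept sign and side of the threshold. The members called were 8, 7, 8, 7 and 9 for the genotype difference at 0, 1, 3 and 5 h and over the mean. They were 10 and 10 for the slopes and 7 for the slope difference. These are the numbers found without the block, and shares over all genes are not given for this fit.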
